A study of Mus musculus with 2 samples.

Results

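Haemoglobin transcripts and red cell surface signal were followed through the hepatic CD45+ cells of dnTGFβRII (TG) and wild type (WT) mice, to see which annotated immune cells carried red cell RNA or membrane. The members were the adult globin genes Hba-a1, Hba-a2, Hbb-bs and Hbb-bt, 4 of the 13528 genes in the filtered table, read together with 2 of the 49 antibodies, TER-119 and CD24. They were chosen by their measured values, the haemoglobin UMIs and the TER-119 and CD24 counts of these same cells, so those levels are given as description and carry no test.

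In TG mice the Cd4 promoter drives a dominant negative human TGF-β receptor II, and the animals develop autoimmune cholangitis; both genotypes were on the C57BL/6 background at 10 weeks of age by the labels (the methods give a slightly younger age). The WT cells were captured in 1 library together with cells of P40-/-IL-2Ra-/- mice, and the TG cells in another with cells of IFN-γ ARE-Del-/- mice, so genotype and library cannot be told apart. With 1 library per genotype there was no replicate, the number of animals in each pool was not given in the labels, and every interval below is a 95% interval that covers counting error only. The deposited annotation named 4647 TG and 7282 WT cells in 14 cell types. A TG cell had a median depth of 3298 UMIs and a WT cell one of 2653.5, median antibody counts were 1363 and 1312, and 36 cell barcodes occurred among the named cells of both libraries. Tgfbr2, which the transgene product interferes with, was counted at 313 CPM in CD4 and CD8 T cells of TG mice and at 176 CPM in those of WT mice. UMIs are unique molecule counts, and CPM is UMIs per 1000000 UMIs of the same cells.

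Haemoglobin carries oxygen as a tetramer of alpha and beta chains. Erythroblasts fill with globin mRNA, lose the nucleus to become reticulocytes, and then shed the remaining RNA and the transferrin receptor CD71 on the way to the mature erythrocyte, which keeps its membrane but holds little RNA. The TER-119 antibody binds the red cell membrane from the early erythroblast to the mature cell. CD24 is a small glycoprotein found on red cells and also on B cells, neutrophils and monocytes. Lymphocytes and natural killer (NK) cells make no globin in any quantity.

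The alpha genes lie on chromosome 11 (GRCm38, GENCODE vM21), Hba-a1 at chr11:32283511-32284465 and Hba-a2 at chr11:32296489-32297298, both on the plus strand. The beta genes lie on chromosome 7 on the minus strand, Hbb-bs at chr7:103826534-103828096 and Hbb-bt at chr7:103812524-103813996. Each has 3 exons. The coding sequences of the alpha pair matched at 425 of 426 bases and those of the beta pair at 440 of 441, while whole transcripts matched at 537 of 538 aligned bases in the alpha pair and 575 of 618 in the beta pair. The division of UMIs is therefore uncertain inside the alpha pair and, for reads in coding sequence, inside the beta pair, and much less so between alpha and beta (best local match 158 of 269 coding bases). The 4 promoters are shown because the genes appeared in the same cells: RefSeq windows of 110 bases that end just before the RefSeq start site (GRCm38.p6), which lies inside the GENCODE gene given above for all 4 genes, with capitals for the letters CACCC, for the CCAAT box (written ATTGG where it lies on the other strand) and for the TATA box letters TATAA, each searched on both strands.
Hba-a1 (chr11:32283562-32283671, plus): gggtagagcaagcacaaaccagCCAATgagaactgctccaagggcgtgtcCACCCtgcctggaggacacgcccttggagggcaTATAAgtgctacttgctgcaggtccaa
Hba-a2 (chr11:32296382-32296491, plus): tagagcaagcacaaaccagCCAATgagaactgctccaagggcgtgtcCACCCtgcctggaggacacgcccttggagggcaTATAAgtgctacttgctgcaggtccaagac
Hbb-bs (chr7:103827929-103828038, minus): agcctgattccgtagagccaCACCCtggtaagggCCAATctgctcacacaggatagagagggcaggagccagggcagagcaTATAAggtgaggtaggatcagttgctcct
Hbb-bt (chr7:103813924-103814033, minus): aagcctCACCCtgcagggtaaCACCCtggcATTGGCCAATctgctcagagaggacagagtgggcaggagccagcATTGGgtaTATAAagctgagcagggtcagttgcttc
The 2 alpha windows were identical over 107 bases, and the beta windows matched at 79 of 107. CACCC occurred in 29.6% of all 32851 promoter windows of this length, CCAAT in 20.2% and TATAA in 10.9%, and 0.554% held all 3, as each of these 4 did. These matches describe the letters and were not tested for binding.

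Haemoglobin RNA was far higher in the WT than in the TG cells. All WT cells together held 6496 UMIs of the 4 genes, 2166 of Hba-a1, 1798 of Hba-a2, 1846 of Hbb-bs and 686 of Hbb-bt, or 292 CPM (285 to 300). The TG cells held 16 UMIs, all of Hbb-bs and each in a different cell, or 0.865 CPM (0.494 to 1.40). This gave a TG to WT log2 ratio of -8.40 (-9.21 to -7.70), and 7.11% of all genes with at least 10 UMIs were at least 2-fold lower in TG. The zeros of the other 3 genes in TG came from a filter: the library file held 9 UMIs of Hba-a1, 5 of Hba-a2 and 4 of Hbb-bt in the same TG cells, which makes 34 in all and a log2 ratio of -7.31 (-7.85 to -6.83).

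Nearly all of this RNA sat in a handful of cells. In WT, 21 of 7282 cells (0.288%, 0.179 to 0.440) held 43 to 713 haemoglobin UMIs each and 6330 of the 6496 UMIs, 97.4%; they are called Hb-high, from a threshold of 10 UMIs. No WT cell lay between 9 and 43 UMIs. Of the other WT cells, 101 had 1 UMI, 10 had 2 and 7 had 3 to 9. No TG cell had more than 2 haemoglobin UMIs in the library file, and 0 of 4647 allows a share of Hb-high cells of up to 0.0646% by a floor of 3 counts, or 0.0794% by the Clopper-Pearson interval. Leaving out the Hb-high cells gave a TG to WT log2 ratio of -3.11 (-3.96 to -2.37) in the filtered table and of -2.03 (-2.61 to -1.49) in the library files.

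The Hb-high cells were mainly annotated as CD8αα T cells (7 cells, all in cluster 2) and NK cells (9 cells, 7 in cluster 3 and 2 in cluster 8). The rest were 2 CD8αβ T cells, 2 mature B cells and 1 NKT cell. CD8αα T cells stood at 4860 CPM (4677 to 5048) in WT against 0.755 CPM in TG, and NK cells at 1698 CPM (1634 to 1763) against 1.31 CPM. WT CD8αβ T cells followed with 182 CPM (167 to 197), mature B cells with 99.4 CPM (89.3 to 110) and NKT cells with 23.3 CPM (19.8 to 27.3). A single cell held 480 of the 557 UMIs in CD8αβ T cells, 257 of 357 in mature B cells and 114 of 154 in NKT cells. The order of these types therefore rests on single cells. The 9 cell types with no Hb-high cell held 29 UMIs in 1928 cells and lay between 1.88 and 23.1 CPM, the latter a single UMI in 16 basophils. These figures rest on very few cells: the 3 richest cells held 25.6% of all WT haemoglobin UMIs.

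Each of the 4 genes was higher in WT CD8αα T cells than in other WT cells, by 4.70 to 4.88 on the log2 scale, where 9.66% of all genes were at least 2-fold higher; the sum of the genes gave 4.78 (4.71 to 4.86). Without the Hb-high cells this became 2.40 (1.63 to 3.10). That value rests on few UMIs, since Hb-high cells held 2654 of the 2673 UMIs of WT CD8αα T cells. Among the rest were single cells of 7 and 5 UMIs, with 206 and 1590 TER-119 counts. In NK cells over the other WT cells the genes lay 3.09 to 3.46 higher, where 7.76% of genes were at least 2-fold higher. All 4 genes therefore appeared in the same classes of cells.

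**Figure D1:**
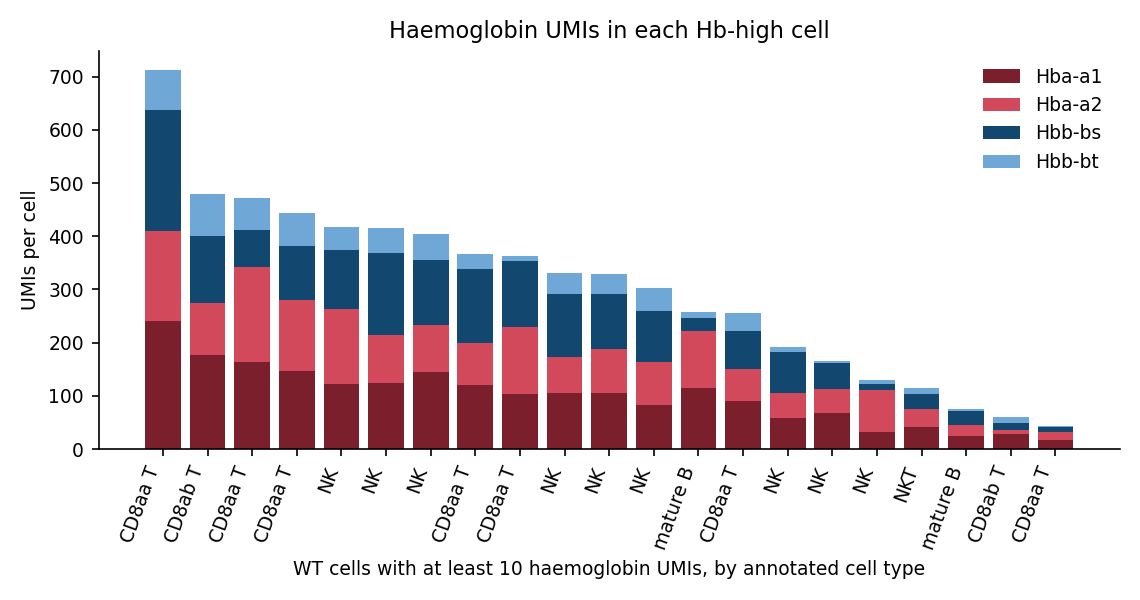
Haemoglobin UMIs (vertical axis) in each of the 21 WT cells with at least 10 such UMIs, stacked by gene and ordered by their sum, with the annotated cell type under each bar. The bars fall from 713 to 43 UMIs, all 4 genes are present in every cell, and 16 of the 21 cells are CD8αα T or NK cells.

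All 4 genes were counted in all 21 Hb-high cells. Hba-a1 ranged from 17 to 241 UMIs per cell (median 105), Hba-a2 from 7 to 179 (median 80), Hbb-bs from 10 to 229 (median 97) and Hbb-bt from 1 to 80 (median 34). Together the genes made up 1.86% to 19.4% of all UMIs of a cell (median 11.2%). Across the 21 cells the UMIs of Hba-a1 and Hbb-bs had a Spearman rho of 0.75, given as a description of cells that share 1 library.

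The division of haemoglobin UMIs between alpha and beta chains is given for the few rich WT cells and for the sparse remainder, with intervals that treat UMIs of 1 cell as independent. Beta genes gave 39.0% (37.8 to 40.2) of the haemoglobin UMIs of the Hb-high cells and 39.8% (32.3 to 47.6) of the 166 UMIs spread over cells with 1 to 9. By type, the share was 38.0% (36.2 to 39.9) in Hb-high CD8αα T cells and 41.8% (39.9 to 43.7) in Hb-high NK cells, and 33.8% (30.9 to 36.9) in the 5 Hb-high cells of other types, or 40.9% (37.3 to 44.6) without the mature B cell of 257 haemoglobin UMIs. Single cells varied more, with alpha shares from 51.7% to 86.4%; the highest 2 were a mature B cell with 115 Hba-a1, 107 Hba-a2, 24 Hbb-bs and 11 Hbb-bt UMIs and an NK cell with 33, 78, 12 and 7. The division of UMIs inside the alpha pair, and for coding sequence inside the beta pair, is uncertain as given above. These shares therefore do not rank the 4 genes by expression.

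Most of these cells held the markers of the type they were assigned to. All 9 Hb-high NK cells had UMIs of Ncr1, which encodes the NK receptor NKp46, and of Klrb1c, which encodes NK1.1. Of the 7 Hb-high CD8αα T cells, 6 had Cd3e, a chain of the T cell receptor complex, and the same 6 had Cd8a. The remaining 1, with 43 haemoglobin UMIs, had neither, but 1 UMI of Ncr1 and 3 of Klrb1c. The one with 713 haemoglobin UMIs also had 3 UMIs of Cd8b1. Cd79a had 1 UMI in each of those with 443 and 366 haemoglobin UMIs, and 2 in the NKT cell. Both mature B cells had Cd79a and Ms4a1, and the one with 76 haemoglobin UMIs also had 4 UMIs of Klrb1c and 1 of Cd3e. Ptprc, which encodes CD45, was found in 20 of the 21 cells, at 1286 CPM against 1172 CPM in the other WT cells, a log2 ratio of 0.13 (-0.20 to 0.45). The cell with 480 haemoglobin UMIs, annotated CD8αβ T, also differed. It had no Cd3e or Cd8a UMI and 1 of Cd8b1. Of its UMIs, 20.2% were mitochondrial, against a median of 4.04% over the 21 cells.

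Other red cell genes, which the choice of members did not use, were also present in the Hb-high cells. Alas2, the erythroid enzyme that starts haem synthesis, had 46 UMIs in 12 of the 21 cells and 1 UMI in the other 7261 WT cells. These 12 cells were of all the types that held Hb-high cells except mature B cells. Fech, which inserts iron into the porphyrin ring, was higher by 2.59 on the log2 scale (1.27 to 3.65), Slc25a37, the mitochondrial iron importer of erythroblasts, by 2.02 (1.29 to 2.67), and Bpgm, which makes 2,3-bisphosphoglycerate, by 3.82 (2.80 to 4.68).

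Of the list of haem synthesis and red cell enzymes, 19 of 24 genes had at least 10 UMIs in WT, and in 11 of them the interval of the ratio lay above 0 and in none below it; over all genes with 10 UMIs the interval lay above 0 in 3.15% (36.2% were at least 2-fold higher). Of the list of membrane and skeleton genes, 4 of 8 lay above (Ank1, Sptb, Epb41 and Ermap, with 2, 2, 23 and 4 UMIs). Of the erythroid regulators, 2 of 5 lay above, Tal1 with 3 UMIs in 1 cell and Tfrc, the CD71 gene, with 8 UMIs in 2 cells. The median log2 ratio was 2.06 for the enzymes, 3.50 for the membrane genes and 1.16 for the regulators, against 0.48 over all genes. These medians add 0.5 UMIs to each side, which lifts genes with few or no UMIs in the 21 cells. The hepatocyte list, with 1 UMI in those cells, had a median of 2.68, so the medians carry no comparison. The counts of genes above 0 rest in part on few cells. Ermap had its 4 UMIs in 1 cell, and 11 of the 23 Epb41 UMIs lay in the cell with 480 haemoglobin UMIs. These counts were not remade without such cells. Gata1, the master regulator of the lineage, and Gfi1b were listed at 0 in WT after the authors' filter. The library file held 8 UMIs of Gata1 in 8 WT cells, 1 of them Hb-high, and 5 of Gfi1b in 4 WT cells, 2 of these UMIs in 1 Hb-high cell. The 36 measured genes of these lists summed to 5558 CPM in Hb-high and 1599 CPM in other WT cells, a log2 ratio of 1.80 (1.64 to 1.95).

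UMIs of Slc4a1, the band 3 anion exchanger of the red cell membrane, were found among the WT cells in the 2 Hb-high CD8αβ T cells alone. The gene was left out of the filtered table, and the library file held 9 UMIs in the cell with 480 haemoglobin UMIs and 1 in the one with 61. Car2, a carbonic anhydrase, had 21 and 14 of its 51 UMIs in the same cells. Without these 2 cells the log2 ratio of the red cell lists was 1.10 (0.89 to 1.30). Of the 15 genes of haem and iron handling, 13 were measured, and the interval lay below 0 in 2, the ferritin chains Ftl1 at -0.58 (-1.06 to -0.13) and Fth1 at -0.69 (-1.04 to -0.35), and above 0 in none. With the same cell type mix these ratios were -0.16 and -0.07. Of the 6 embryonic and minor globins listed, Hbb-bh1 and Hbq1b had 2 UMIs each in the library file, all in Hb-high cells. Hba-x, Hbb-y, Hbb-bh2 and Hbq1a were not among its genes and have no value here.

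Outside these lists, the genes with the highest ratio in Hb-high cells over other WT cells of the same cell type mix, among 146 with at least 50 UMIs in 10 or more of the cells, were Gzmb (0.71 on the log2 scale), Rgs1 (0.60), Pim1 (0.50), Rgs2 (0.50) and Efhd2 (0.43). Gzmb encodes the cytotoxic protease granzyme B, Rgs1 and Rgs2 encode regulators of G protein signalling, and Pim1 encodes a kinase. The globins stood 11.63 to 12.82 higher on the same scale. Over 39 profiles of a cluster in a genotype with at least 50 cells, the genes whose CPM most resembled the haemoglobin sum were Strbp (Spearman rho 0.68), Morc3 (0.64), Rsrc2 (0.64), Sarnp (0.63) and Tnpo3 (0.61); 10 of the profiles held no haemoglobin UMI, and 10808 genes were ranked.

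The membrane signal reached many more cells than the RNA. TER-119 made up 1.94% of all antibody counts in WT and 0.0629% in TG, a log2 ratio of TG over WT of -4.95 (-4.99 to -4.91), although the median cell had 1 count in both. The counts fell into a low range and a separate high range. In WT, 351 cells (4.82%, 4.34 to 5.34) had at least 50 TER-119 counts, a threshold set after the counts were seen; they are called TER-119-high, had a median of 371 counts, and 24 of them lay under 100, with 58 more cells between 20 and 49. In TG, 2 cells (0.0430%, 0.00521 to 0.155) passed, a monocyte with 68 counts and a mature B cell with 165. Without TER-119-high cells the TG to WT log2 ratio became -1.15 (-1.19 to -1.10).

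NK and CD8αα T cells formed 11.1% of the WT cells and 64.4% of the TER-119-high cells (226 of 351). CD8αα T cells were TER-119-high in 33.0% (26.4 to 40.1) and NK cells in 26.3% (22.9 to 30.0), and in the same types of TG mice in 0 of 410 and 0 of 759 cells, which allows shares of up to 0.732% and 0.395% by 3 counts, or 0.896% and 0.485% by the Clopper-Pearson interval. For NK cells these are not like populations, since 343 of the 759 TG cells but 22 of the 615 WT cells lay in cluster 11, and T cell markers differed as given further on. Within NK cells the share was 41.2% (35.6 to 46.9) in cluster 3, 12.5% (8.94 to 16.9) in cluster 8 and 0 of 22 in cluster 11. The 22 cells are too few to place cluster 11 below cluster 8. This is a description of 1 library at a threshold set on these counts.

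The remaining types were far lower. Mature B cells followed with 4.48% (3.49 to 5.66), immature B cells with 2.48%, monocytes with 1.94% and macrophages with 1.92%. NKT cells had 1.34% (0.909 to 1.91), γδ T cells 1.04% and CD8αβ T cells 0.977% (0.423 to 1.92). CD4 T cells were lowest among the T cells with 1 of 734, 0.136% (0.00345 to 0.757). From immature B cells down to CD8αβ T cells the intervals of neighbouring types overlapped.

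**Figure D2:**
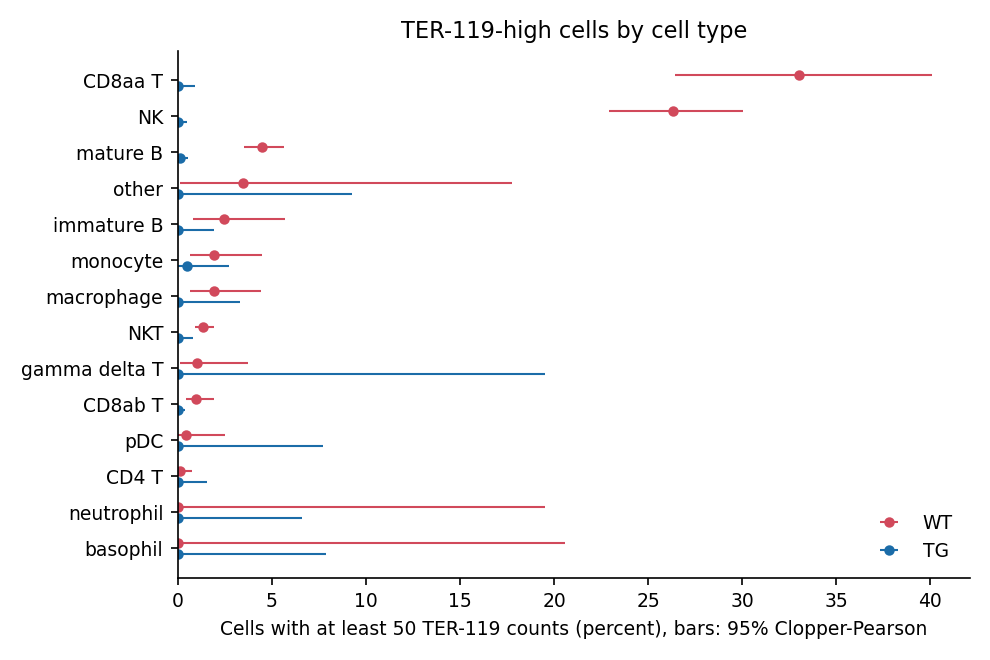
Percent of cells with at least 50 TER-119 counts (horizontal axis) by annotated cell type (vertical axis) in WT and TG; bars are 95% Clopper-Pearson intervals that cover counting error only. WT CD8αα T cells at 33.0% and WT NK cells at 26.3% stand apart from all other types, of which mature B cells are the highest at 4.48%, and the TG points lie at or near 0.

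Sums of TER-119 were partly set by single cells. In WT NK cells TER-119 gave 20.2% of all antibody counts, 18.6% without the cell of 14700 counts, and in CD8αα T cells 21.5%, or 20.4% without the top cell. In WT monocytes the share was 2.27% with and 0.488% without a single cell of 10164 counts. The median monocyte had 6 counts in WT and 4 in TG, above the median of 1 over all cells of either genotype.

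A small macrophage cluster had moderate TER-119 counts on most of its cells, along with high counts of other antibodies. Cluster 27, 23 WT cells, had C1qa at 2046 CPM and the tissue macrophage genes Timd4 at 598, Cd5l at 643 and Vsig4 at 386 CPM, but 0 UMIs of Cd163 and Spic and 2 of the iron exporter Slc40a1, and Clec4f, a marker of Kupffer cells, had 1 UMI over all WT cells, so the cluster is not named further. It had a median of 31 TER-119 counts (quartiles 17.5 and 43.5), with 4 cells at 50 or more and 10 between 20 and 49. The antibody totals of these cells were also high, with a median of 3733, so that TER-119 was 0.736% of the counts, and the medians of CD41 and CD9 were 94 and 338 against 6 and 15.5 in the larger macrophage cluster 15. They held 0 haemoglobin UMIs, and Hmox1, the haem-degrading oxygenase, stood at 161 CPM (104 to 237) against 64.7 CPM (47.0 to 86.9) in cluster 15. Cluster 15, with 158 WT cells, had a median of 2 TER-119 counts and TER-119 at 0.668% of its antibody counts, 0.203% without the top cell.

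Membrane and RNA met in the same cells, but only a small part of the TER-119-high cells held RNA. All 21 Hb-high cells were TER-119-high, with 66 to 14700 counts (median 606). Of the 351 TER-119-high cells, 21 (5.98%) were Hb-high, 22 had 1 to 9 haemoglobin UMIs and 308 had none. At least 1 UMI was found in 12.3% (9.01 to 16.1) of TER-119-high cells and in 1.34% (1.08 to 1.64) of the 6873 WT cells with under 20 counts, while CD4 T cells, which had little TER-119, held one in 0.954% (0.384 to 1.96) at a median depth of 2437.5 UMIs. TER-119 as a share of antibody counts was higher in Hb-high than in other WT cells by 4.61 (4.60 to 4.63) on the log2 scale, and by 1.45 when the others had the same mix of cell types. The Hb-high NK cell with 14700 TER-119 counts, of 24915 antibody counts, weighed heavily in both ratios. They were not remade without it. Among the 21 cells the amounts of RNA and of TER-119 were not ordered alike (Spearman rho -0.01).

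**Figure D3:**
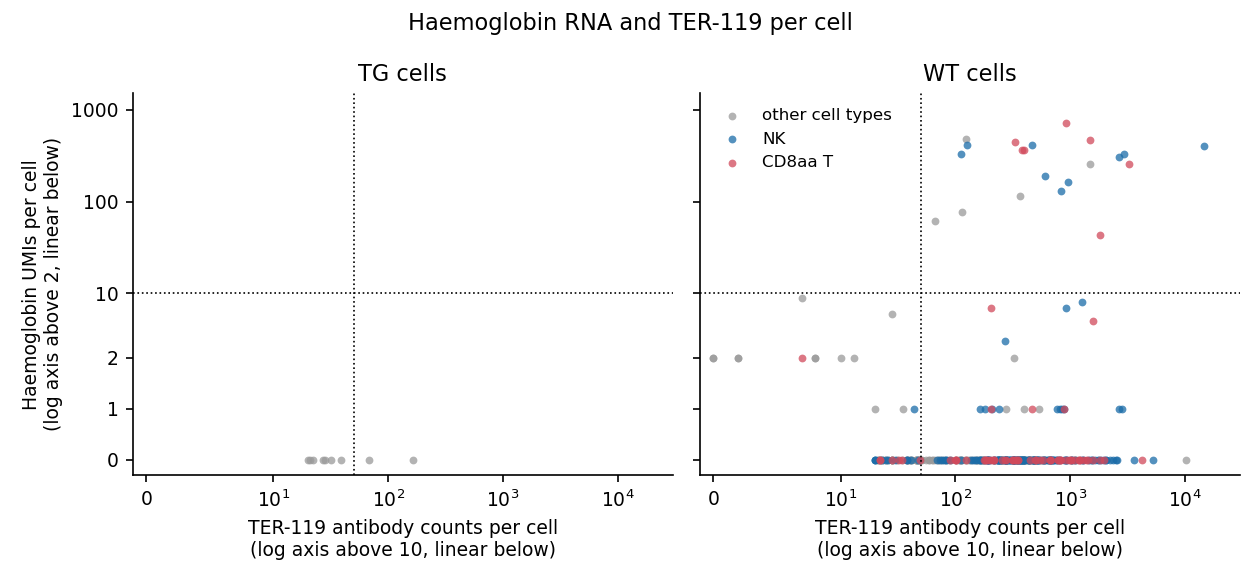
Haemoglobin UMIs (vertical axis) against TER-119 counts (horizontal axis) of single TG (left) and WT (right) cells, drawn for cells with at least 20 TER-119 counts or 2 haemoglobin UMIs; axes are logarithmic above the marked values and linear below, colours give the cell type, and dotted lines mark 50 counts and 10 UMIs. All 21 WT cells above 10 UMIs lie to the right of 50 TER-119 counts, most of the 351 TER-119-high WT cells lie at 0 UMIs, and TG has 2 cells past 50 counts and none past 10 UMIs.

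CD24 antibody counts rose and fell with TER-119. Over the 351 TER-119-high WT cells the Spearman rho was 0.88 and the median ratio of CD24 to TER-119 counts 0.941; over the 21 Hb-high cells rho was 0.92. In cluster 3 the median CD24 count was 456 in TER-119-high and 22 in TER-119-low cells (under 20 TER-119 counts), in cluster 2 it was 543.5 and 19.5, and in cluster 8 it was 348.5 and 12. Cd24a RNA in the TER-119-high and TER-119-low cells was 7 and 2 UMIs in cluster 3 and 5 and 4 in cluster 2, too few to order. In the mature B cells of cluster 1, which express the gene, it was 67 and 1457 UMIs, 552 and 540 CPM, a log2 ratio of 0.03 (-0.35 to 0.38), while the median CD24 antibody count was 300 and 11.

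Cell types known to make CD24 showed the protein without much TER-119. WT monocytes had a median of 45.5 CD24 counts and TG monocytes 35, WT neutrophils 26, WT immature B cells 19 and mature B cells 12. In TG, immature and mature B cells had 7 and 5. Other lymphocytes were not uniformly low, with 2 counts on WT CD4 T cells but 15 on TER-119-low NK and CD8αα T cells of WT. As a share of antibody counts, CD24 on B cells exceeded that on T cells (NKT and γδ T cells included) by 1.09 (1.05 to 1.14) on the log2 scale in TG, but by 0.19 (0.18 to 0.21) in WT. Once TER-119-high cells were left out, the ratio was 1.09 in TG and 1.11 (1.08 to 1.13) in WT. The CD24 contrast between B and T cells in WT thus depended on whether the red cell signal was included.

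CD71, the transferrin receptor carried by reticulocytes, was high on the Hb-high cells but not on other TER-119-high cells. Among NK and CD8αα T cells of WT, 14 of 16 Hb-high cells had at least 5 CD71 counts (87.5%, 61.7 to 98.4), with a median of 35. Of the 192 TER-119-high cells without haemoglobin UMIs, 4 did (2.08%, 0.570 to 5.25), close to the 5 of 565 TER-119-low cells (0.885%, 0.288 to 2.05). Of the 18 TER-119-high cells with 1 to 9 haemoglobin UMIs, 2 did (11.1%, 1.38 to 34.7). CD71 was not used to pick the cells, and over all 21 Hb-high cells it ranged from 0 to 202 counts (median 32).

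**Figure D4:**
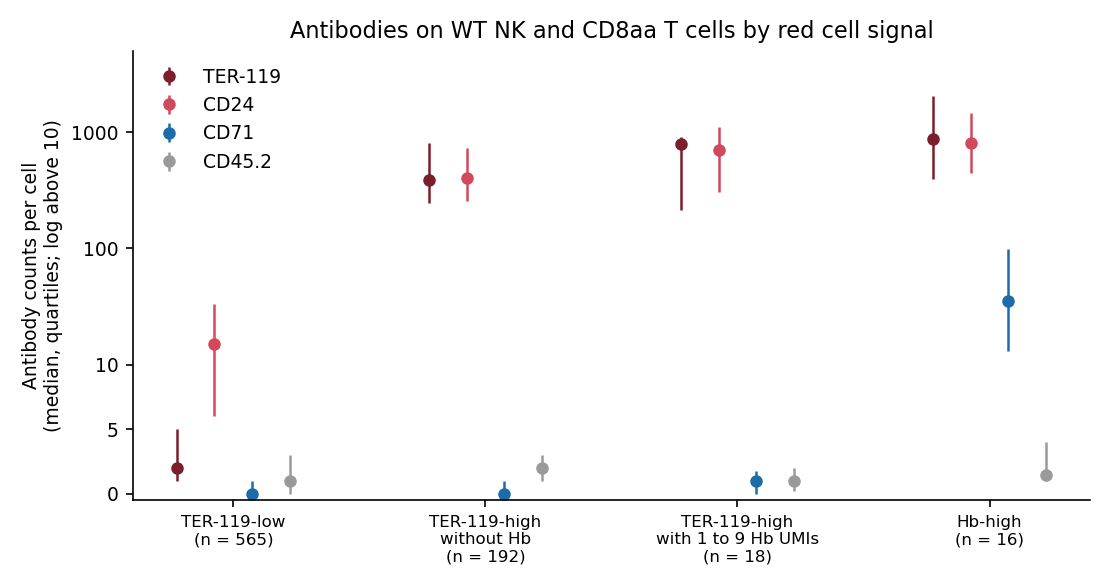
Antibody counts per cell (vertical axis, logarithmic above 10) of TER-119, CD24, CD71 and CD45.2 on WT NK and CD8αα T cells, by red cell signal (horizontal axis); points are medians and bars the quartiles. TER-119 and CD24 are high in all 3 TER-119-high classes, CD71 has a median of 35 in the Hb-high cells and of 0 or 1 in the other classes, and CD45.2 has medians of 1 to 2 throughout.

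The other antibodies named, CD45.2, CD41 and CD9, differed less in their medians on the Hb-high cells. The leukocyte marker CD45.2 had a median of 2 counts in the Hb-high cells and in the other WT cells. CD41, the platelet integrin, had a median of 3 counts against 1, and CD9, found on platelets and B cells, a median of 12 counts in the Hb-high and 11 in the TER-119-low NK and CD8αα T cells. Of the 8 platelet genes listed, 4 were in the filtered table, and none of these, Pf4 included, had a UMI in a Hb-high cell. At the depth of 21 cells this leaves room for Pf4 up to 2.16 higher on the log2 scale than in other WT cells. Of the 8 hepatocyte genes 5 were in the table, and 1 had a UMI there, Trf with 1; Alb, Apoa1 and Apoa2 had none in Hb-high cells and 29, 10 and 11 in the other WT cells, and a log2 ratio of Alb of up to 5.58 was not detectable.

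Within NK clusters, TER-119-high and TER-119-low cells had similar depth, while some lineage genes differed beyond counting error. In cluster 3, 126 TER-119-high and 170 TER-119-low cells had median depths of 2656.5 and 2624.5 UMIs. Ncr1 was detected in 85.7% and 86.5% of these cells, Klrb1c in 96.0% and 94.1% and Cd3e in 10.3% and 12.9%. Mitochondrial UMIs had a median of 3.61% in each group. Antibody counts other than TER-119 and CD24 had medians of 525 and 498. By UMIs, the log2 ratio of TER-119-high to TER-119-low cells was 0.17 (-0.04 to 0.38) for Ncr1, 0.20 (0.03 to 0.37) for Klrb1c, -0.68 (-1.35 to -0.03) for Cd3e and -2.42 (-4.39 to -0.91) for Cd8b1, the last on 4 and 29 UMIs. The intervals of Cd3d, -0.54 (-1.25 to 0.14), and of Cd8a, 0.61 (-0.45 to 1.67) on 18 and 16 UMIs, spanned 0. In cluster 8, with 36 and 249 cells, the NK genes were lower in TER-119-high cells, Ncr1 with -0.41 (-0.78 to -0.06) and 77.8% against 86.7% of cells, and Klrb1c with -0.32 (-0.62 to -0.04). The B cell gene Cd79a was higher in the TER-119-high cells of both NK clusters, with 12 against 2 UMIs in cluster 3, 3.02 (0.85 to 6.22), and 27 against 9 in cluster 8, 4.25 (3.12 to 5.53). It was found in 3.97% and 11.1% of the TER-119-high cells of these clusters and in 1.18% and 1.61% of the TER-119-low cells.

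In the CD8αα T cells, too, depth was similar and the intervals of some lineage genes lay off 0, with the same limit. In cluster 2, the 64 TER-119-high and 124 TER-119-low cells had median depths of 2612 and 2741.5 UMIs, Cd3e was detected in 89.1% and 96.0%, and Klrb1c in 82.8% and 74.2%. Trdc, the δ chain constant gene, stood at 695 CPM in TER-119-high and 962 CPM in TER-119-low cells, a log2 ratio of -0.47 (-0.78 to -0.17), while Cd8a was higher by 0.34 (0.09 to 0.58) and Klrb1c by 0.32 (0.03 to 0.61). Antibody counts other than TER-119 and CD24 had medians of 413 in the TER-119-high and 602.5 in the TER-119-low cells. In the mature B cells of cluster 1, with 57 TER-119-high cells, Cd79a was found in 100% and 99.9%, and Ms4a1 had a ratio of -0.31 (-0.60 to -0.03).

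Haemoglobin UMIs lay almost wholly on the TER-119-high side. In cluster 3 the 126 TER-119-high cells held 2253 haemoglobin UMIs and the 170 TER-119-low cells 7, and in cluster 2 the numbers were 2669 and 4. Of all genes with 10 UMIs, the interval of the ratio lay above 0 in 2.42% and below 0 in 3.68% in cluster 3, in 2.45% and 3.27% in cluster 2, in 2.86% and 1.95% in cluster 8 and in 2.56% and 1.54% in cluster 1. Among the genes below, named after their values were seen, Il7r, the interleukin 7 receptor chain, had a log2 ratio of TER-119-high to TER-119-low cells of -1.38 (-1.88 to -0.90) in cluster 3 and -2.06 in cluster 2, where it had 8 UMIs in the TER-119-high and 68 in the TER-119-low cells. Emb, a cell surface glycoprotein gene, had -2.19 (-3.26 to -1.26) and -2.40 (-4.34 to -0.94). Il18r1, a chain of the interleukin 18 receptor, had -2.79 (-4.29 to -1.57) in cluster 3. In cluster 2 the interval of Il18r1 spanned 0, -1.09 (-3.54 to 0.77). In cluster 8 those of all these genes did, with Il7r at -0.68 (-2.36 to 0.64), Emb at 0.14 (-0.55 to 0.77) and Il18r1 near 0 on 34 and 216 UMIs, and in cluster 1 so did Il7r at -0.55 (-3.63 to 1.36) and Emb at -0.26 (-2.57 to 1.33). Ly6c2, from the lineage markers instead, had -0.86 (-1.58 to -0.18) in cluster 3 and -1.48 (-2.27 to -0.77) in cluster 2. It had -0.72 (-1.23 to -0.25) in cluster 8, and in cluster 1 its interval spanned 0, 0.80 (-0.45 to 1.83).

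The cells named NK differed in T cell markers between the genotypes. In cluster 3, Cd3e was detected in 12.4% of WT but in 89.7% of TG cells, and Ncr1 in 85.9% and 61.2%. In cluster 11, Cd3e was detected in 13.6% of the 22 WT and in 96.8% of the 343 TG cells, and Ncr1 in 68.2% and 56.3%. In cluster 8, where Cd3e was found in 10.8% of WT and 22.2% of TG cells and Ncr1 in 85.7% and 90.2%, 36 of 287 WT cells and 0 of 153 TG cells were TER-119-high. CD8αα T cells had Cd3e in 93.8% of WT and 99.3% of TG cells.

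The libraries also held cells with no genotype name, which can be cells of the other strain of each pool or cells of TG and WT mice left out of the annotation; these were not told apart here. TER-119-high cells made up 1.52% (1.34 to 1.72) of the 16829 such cells in the library with WT and 0.260% (0.142 to 0.436) of the 5379 in the library with TG. Among cells with an Ncr1 UMI the shares were 25.8% (22.5 to 29.4) of 658 WT cells, 7.87% (5.54 to 10.8) of 445 unnamed cells beside them, 0 of 816 TG cells and 0.158% (0.00401 to 0.878) of 632 unnamed cells beside those. Hb-high cells numbered 19 among the unnamed cells of the library with WT and 1 among those of the library with TG, and the beta chain share in the 19 cells was 39.4% (38.2 to 40.7). In the library with TG the beta share was higher, 56.5% (53.7 to 59.3) of the 1246 UMIs of unnamed cells, 1184 of them in 1 cell, and 58.8% (40.7 to 75.4) of the 34 UMIs of TG cells in the library file. The library with WT thus had more red cell signal among named and unnamed cells alike, and WT cells with Ncr1 more than the unnamed cells with Ncr1 of their own library.

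**Figure D5:**
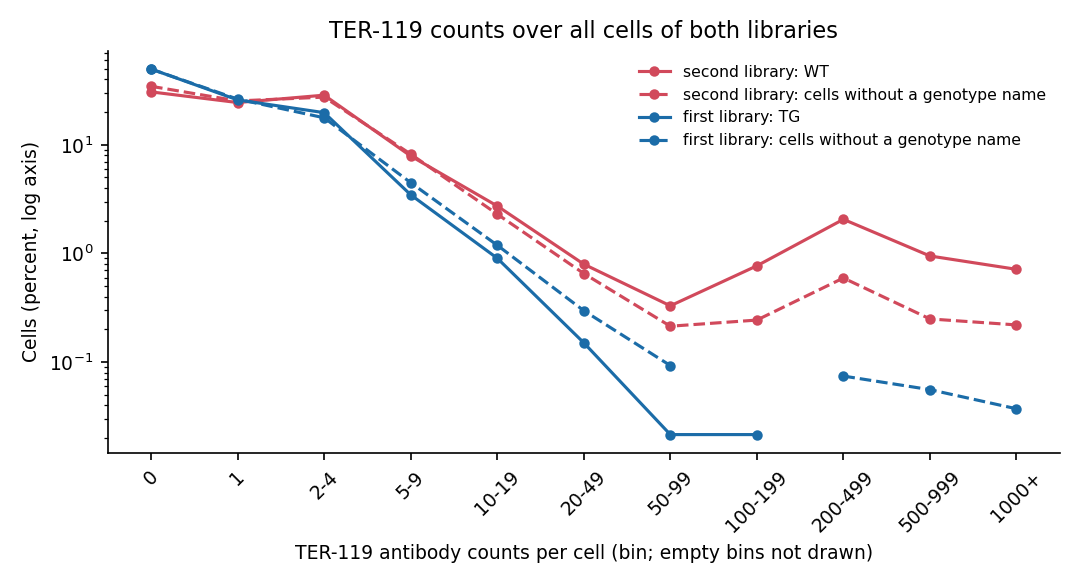
Percent of cells (vertical axis, logarithmic) in bins of TER-119 counts per cell (horizontal axis) for the WT cells (in the second library of the legend), the TG cells (in the first library) and the cells of each library without a genotype name; empty bins are not drawn. A second group of cells above 100 counts is seen in WT, at 2.06% in the bin from 200 to 499, and in the unnamed cells of the same library, at 0.594%; TG has 1 cell at 100 or more.

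Doublet calls could not address red cells. Scrublet, run on each genotype, called 241 WT cells (3.31%) and 39 TG cells (0.839%) doublets, among them 1 of the 21 Hb-high and 17 of the 351 TER-119-high WT cells (4.84%). Scrublet builds its doublets from pairs of the captured cells, among which no red cell class was annotated, so these calls do not show whether a red cell was joined to a named cell. The methods of the study include lysis of red cells before staining. Of the 351 cells, 5 had a cell barcode that also occurred in the other library.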

How the data were processed

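Hepatic CD45+ cells were stained with 49 oligonucleotide-tagged antibodies, captured in 2 BD Rhapsody libraries, each a pool of 2 genotypes, and sequenced for whole transcriptome and antibody tags. The authors aligned reads to mm10 with STAR in the Rhapsody pipeline, filtered cells and genes and annotated cell types after integration in Seurat; the deposited files give raw counts (UMI counts of genes and of antibodies, not normalized), for the named cells and for each whole library. After filtering, 611 genes read 0 in TG and 359 in WT although the library file held counts, each in at most 9 cells of that genotype. Mitochondrial percent was taken as deposited by the authors.

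From there, counts were summed per genotype, cell type and cluster and given as CPM. Shares carry Clopper-Pearson intervals, levels exact Poisson intervals and ratios exact conditional binomial intervals at 95%. No test was run, since there was 1 library per genotype. Genes with at least 10 UMIs entered background shares, and a 0 was bounded by 3 counts. The ratio and interval formulas were checked on simulated independent counts per gene, without cells. This check does not cover UMIs that gather in few cells. The members, thresholds and lists were chosen with earlier results of these data known. Named genes were the members, 6 antibodies, the red cell, iron handling, platelet and hepatocyte lists and lineage markers. Mouse Tgfbr2 was named because the transgene product interferes with it, and no count of the human transgene was made. By rule, 5 genes were named by likeness and 5 by ratio in Hb-high cells. Il7r, Emb and Il18r1 were named after their values were seen. Doublets were called with Scrublet (scanpy 1.11.5) and kept; TMM factors came from edgeR 4.0.16. Each cell was thinned to 1000 UMIs for 1 alternative, which left out 0 cells. Some listed genes are not reported here by name, though sums and counts over the lists include them.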

Additional observations from a re-analysis of the deposited data

Results flagged for a closer look

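Outside the named cells, the richest single cell was above the richest WT cell of 713 haemoglobin UMIs in both libraries: 1563 UMIs in a cell without a genotype name of the library with WT, and 1184 in one of the library with TG. That cell held most of the 1246 UMIs of the 5379 unnamed cells there. Neither cell has a cell type in the deposited annotation.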

How the results depend on the processing

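Under 77 alternatives of 17 results, 43 values stayed within the interval of the reported value. Many of the results are shares, which cannot change sign. None of the log2 ratios did. The haemoglobin ratio of TG over WT became -3.11 without Hb-high cells, -7.04 for beta chain genes and -10.10 for alpha chain genes, the last from zeros that the filter made in TG, set to 3 counts, and therefore no bound. From the library files it was -7.31, or -7.88 for alpha and -6.72 for beta chain genes and -2.03 without Hb-high cells; that of WT CD8αα T cells became 4.52 with equal weight of each cell, 4.06 without the 3 richest cells and 2.40 without Hb-high cells. The share with haemoglobin (0.344% in TG, 1.91% in WT) was 0.0430% and 0.948% after thinning to 1000 UMIs, 0% and 0.522% from 2 UMIs, and 0.710% for TG in the library files, so shares with 1 UMI follow depth and filter. The TER-119 ratio of TG over WT became -4.81 per cell, -4.31 with equal weight, -4.04 without the top 1% of cells and -1.15 without TER-119-high cells (an alternative, like those on TER-119-high cells, Slc4a1 and shared barcodes, chosen after seeing the data, as were the splits of the library counts). That of Hb-high over other WT cells became 5.83 per cell, 4.59 from 5 UMIs, 1.45 with the same cell type mix and 4.66 without the cells with Slc4a1. CD24 on B over T cells became 2.00 per cell and 1.28 with equal weight in TG, and 0.92, 0.32 and, without TER-119-high cells, 1.11 in WT. The red cell lists became 1.51 from 5 UMIs, 1.95 over totals without the members, 1.60 without Car2 and 1.10 without the cells with Slc4a1. From 20 TER-119 counts, 5.62% of WT and 0.194% of TG cells were high, and by 5% of antibody counts 0% of TG. Results on Hb-high cells of TG have no value, since there were none. No paired analysis was possible because each genotype had 1 library and no test was run.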
